A study of Saccharomyces cerevisiae with 14 samples.

Results

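The genes described here encode trans-acting factors of ribosome biogenesis in the budding yeast Saccharomyces cerevisiae: proteins that process the precursor rRNA and assemble it into the small and large ribosomal subunits. A list of 50 such genes was looked up by standard and systematic name on membranes carrying 6094 open reading frames (ORFs), and 49 were found. NOP10, a small box H/ACA protein, was not matched. By role, the 49 measured genes comprise 7 core proteins of small nucleolar ribonucleoproteins (snoRNPs), 6 early and small-subunit factors and 11 DEAD-box RNA helicases. The others are 3 methyltransferases outside snoRNPs, 3 GTPases and 19 other large-subunit assembly factors.

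Ribosome production starts in the nucleolus, where RNA polymerase I makes one long precursor rRNA. Guide RNAs in snoRNPs direct its methylation and pseudouridylation, while helicases, GTPases and scaffold proteins remodel and cut the precursor on its way to separate small and large subunits. In yeast the genes for these factors form one of the largest growth-linked expression groups, known to be tied, like the ribosomal protein genes, to nutrient supply and to general stress.

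The study asked how yeast responds to weak alkylation by methyl methanesulfonate (MMS), a DNA-methylating agent. Strain FF18984 was grown to mid log phase at one temperature in minimal F1 or in rich YPD medium, and each culture was split into a mock aliquot and aliquots with MMS at 0.00125% (low dose) or 0.0125% (high dose), sampled after 30 min or 1 h. Strain BY4742 was grown in YPD only and given the high dose or mock for 1 h. The labels give no genotype for either strain. Total RNA, reverse transcribed with a radioactive nucleotide from oligo(dT) and random primers, was hybridised to the membranes, with 1 array per condition. This gave 12 FF18984 arrays, 4 per dose, and 2 BY4742 arrays. All doses of one medium and time were probed on one membrane that was stripped between uses, so the FF18984 arrays form 4 membrane sets, and dose was always compared within a set. The labels do not say that the sets came from separate cultures. The p-values for dose therefore reflect the spread of dose differences between the membrane sets, which may be technical. The assay reads bulk RNA scaled within each array, so fewer cells in a given state and less of an RNA per cell cannot be told apart.

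Values are quantile-normalized log2 intensities of each ORF, and a log2 difference of 1 is a 2-fold difference. An ORF counted as at or below background when its spots, averaged after background subtraction, gave no positive signal. The percentage of ORFs in this state per array ran from 2.58% (FF18984, F1, 1 h, mock) to 33.4% (YPD, 1 h, high dose), and it was higher in the 1 h high-dose than the 1 h mock array in both media. Among the ribosome biogenesis genes, 3 were at or below background in each 1 h mock array and 10 in each 1 h high-dose array. After quantile normalization the floor, the level of a gene whose spots gave no signal, was also higher in the 1 h high-dose arrays. It was -1.93 against -2.42 in mock in F1, and -1.94 against -2.38 in YPD. A gene at the floor in both arrays therefore reads as higher at the high dose. SPB1 did so in YPD (0.44) and RRS1 in F1 (0.49), the only set where RRS1 lay above mock. In all, 22 of the 49 were above background on every array and 3 were at or below it on 7 or more (SPB1, RRP8 and NOC3). The arrays also stood apart by sampling time: Pearson's r across the 49 genes had a median of 0.784 between 30 min arrays, 0.751 between 1 h arrays and 0.417 between the times, as a description of arrays that share a membrane type. The BY4742 arrays, labelled 1 h, resembled the FF18984 30 min YPD arrays (median r 0.785) more than the 1 h ones (0.461). Dose effects are therefore given within each time as well. The mating-type genes STE2 and STE3 and URA3, which is deleted in BY4742, followed the strain labels, and LYS2, also deleted there, did not (4.25 and 3.72 in BY4742). RNR2, a ribonucleotide reductase gene of the DNA damage response, was 6.16-fold higher at the high dose (adjusted p 0.00974 in limma).

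**Figure D1:**
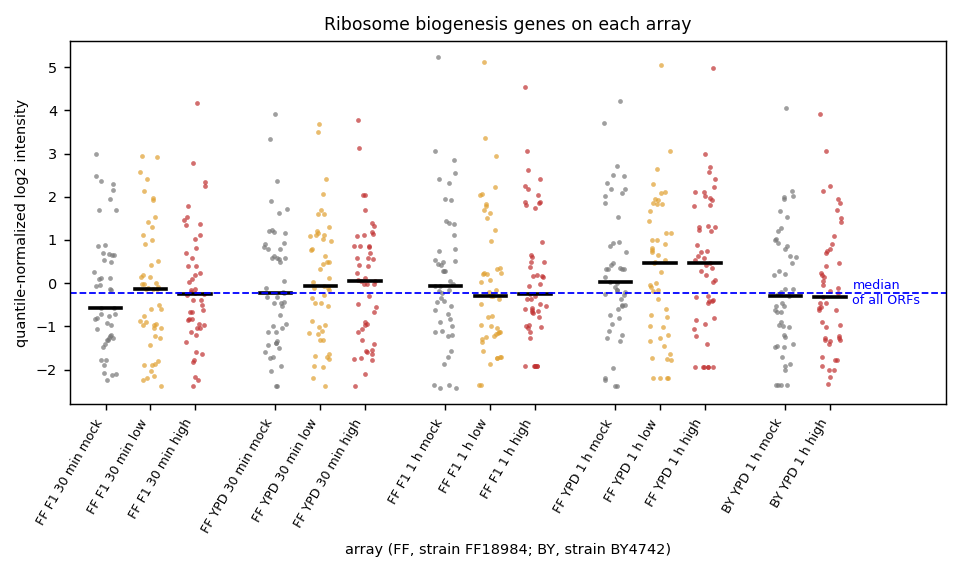
Quantile-normalized log2 intensity (vertical axis) of the 49 ribosome biogenesis genes on each of the 14 arrays (horizontal axis), with points coloured by dose (grey mock, orange low, red high), black bars at the median of the 49 and a dashed line at the median of all ORFs. The median of the 49 lay between -0.57 and 0.47 and was highest in the treated YPD arrays at 1 h.

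The median of the 49 genes ran from -0.57 in the F1 30 min mock array to 0.47 in the YPD 1 h low-dose array, against a median of -0.22 for all ORFs on every array. The treated YPD arrays at 1 h, at 0.47 and 0.46, were the 2 highest, and their mock array stood at 0.03. Within each array the genes spread widely, and levels of different genes are not compared because each has its own probe.

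At the high dose no ribosome biogenesis gene passed the test, and higher and lower values were mixed in every role group of more than 3 genes. None of the 49 passed the test of high dose against mock (adjusted p under 0.05 over all ORFs, limma), in a comparison where 0.0492% of all ORFs passed as higher and 0.0328% as lower. The median log2 difference of the 49 was 0.12, beside -0.00 for all ORFs. Of the 49, 31 had a positive and 18 a negative difference, and the median turned to -0.05 when the spot background was not subtracted. The median of the 49 was 0.14 in F1 at 30 min, 0.06 in YPD at 30 min, -0.04 in F1 at 1 h and 0.27 in YPD at 1 h. At an unadjusted p under 0.05, 5 genes were higher, against 6.6% of all ORFs, and 2 were lower, against 6.7%. As shares of the 49 these are 10.2% and 4.08%, above the background for the first and below it for the second, with no test of either. The 95% interval of a gene with the median standard error reached 0.80 log2 units, or 1.74-fold, to either side, before any adjustment. The adjusted test can miss larger changes than that. RRP12, at 1.17 ± 0.38, did not pass it (adjusted p 0.227 in limma). Leaving the spot background in place made differences smaller throughout: the median size of the high-dose difference over the 49, regardless of sign, was 0.39 with subtraction and 0.16 without. For many of the genes below, the value without subtraction is given beside the main one.

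**Figure D2:**
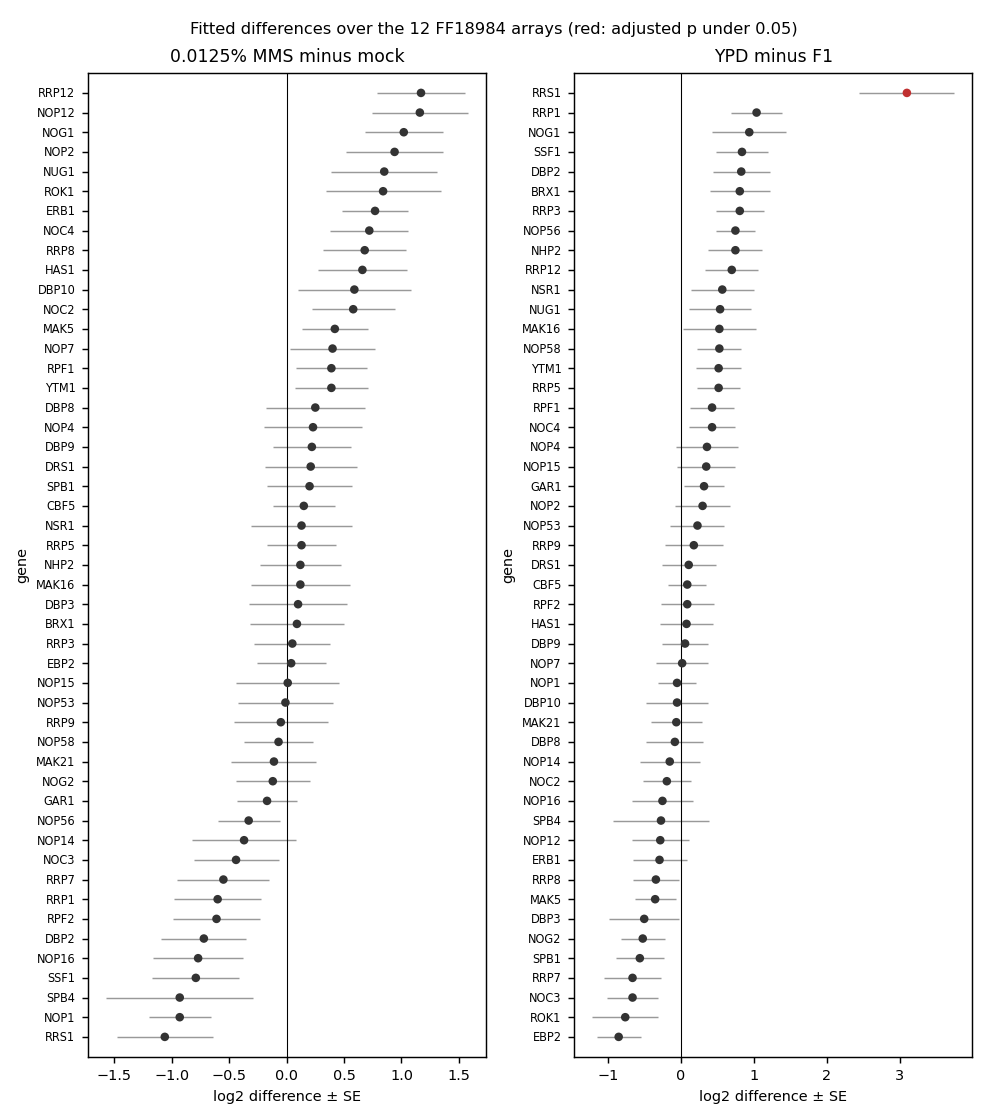
Fitted log2 difference (horizontal axis) with its standard error for each of the 49 genes (vertical axis), high dose against mock on the left and YPD against F1 on the right, over the 12 FF18984 arrays. None of the 49 passed for dose, and for medium only RRS1, drawn in red at 3.10, did.

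The snoRNP core proteins were the only role group of more than 3 genes in which most differences were negative, 5 of 7, with a median of -0.07 and none past the test. NOP1 (YDL014W), the yeast fibrillarin and methyltransferase of box C/D snoRNPs, had the smallest p of all 49 genes. Its level in the mock arrays was 2.47 in F1 and 1.90 in YPD at 30 min, and 2.84 in F1 and 2.50 in YPD at 1 h. In the high-dose arrays it was 1.02, 1.11, 1.75 and 2.10 in the same order. In the low-dose arrays it was 1.41, 1.61, 1.84 and 1.84. Each treated array lay below the mock array of its own set, at both doses, although the mock and high-dose groups overlap across sets. The high-dose difference was -0.93 ± 0.27 (SE), which did not pass the adjusted test (adjusted p 0.196), and it was -0.48 under median centring and -0.29 without background subtraction. At the low dose, measured against the same mock arrays, it was -0.75 ± 0.27 (adjusted p 0.709). The other box C/D scaffold proteins differed less: NOP56 was -0.33 ± 0.27, lower in all 4 sets but 0.09 under median centring, and NOP58 was below mock at 30 min (-0.89 in F1, -0.38 in YPD) and above it at 1 h (0.49 and 0.51). In the box H/ACA class, CBF5, the pseudouridine synthase, differed by 0.57, -0.34, 0.44 and -0.06 over the sets. GAR1, its partner, stayed between -0.32 and 0.10.

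**Figure D3:**
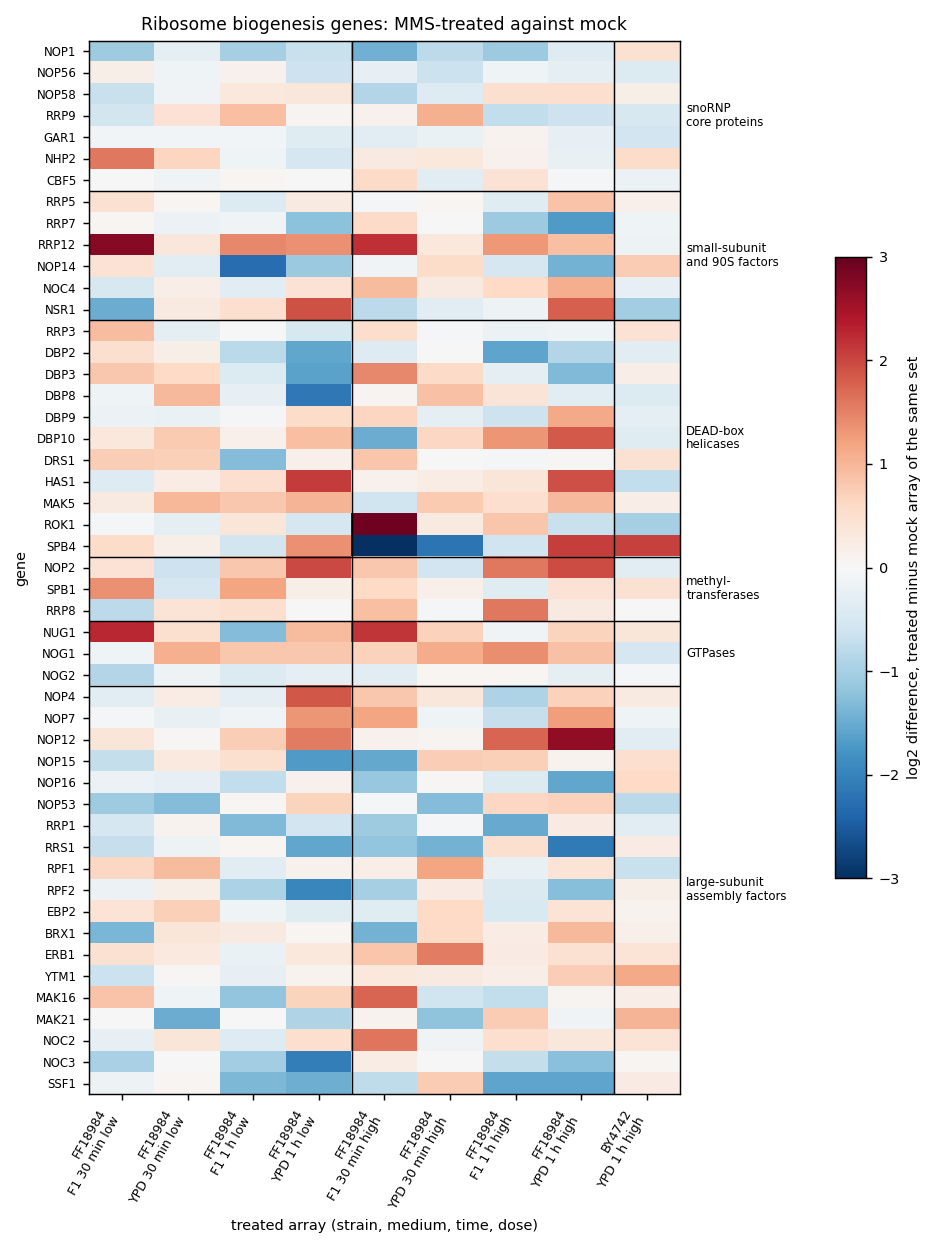
Log2 difference (colour, from -3 in blue to 3 in red) of each treated array from the mock array of its set (columns, grouped into low dose, high dose and BY4742) for the 49 genes (rows, grouped by role). Of the 49 rows, NOP1 (lower) and RRP12 and NOP12 (higher) keep one direction in all treated FF18984 arrays, in quantile-normalized values.

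Of the 6 small-subunit and early factors, 4 were higher and 2 lower at the high dose, with a median of 0.13 and none past the test. RRP12 (YPL012W), a repeat protein needed for export of precursor subunits from the nucleus, had the largest positive difference of the 49. Its mock levels were -0.80 in F1 and 1.72 in YPD at 30 min, and -2.42 in F1, at background there, and -1.96 in YPD at 1 h. The high-dose levels were 1.38, 2.04, -1.13 and -1.06 in that order, and the low-dose levels were 1.93, 2.06, -0.98 and -0.59. In these normalized values every treated array thus exceeded the mock array of its set, by amounts from 0.32 to 2.74, while the groups overlap across sets. Before quantile normalization, as background-subtracted signal divided by the array's median, the high dose lay below mock in both YPD sets. There RRP12 was at 2.6 against 3.73 at 30 min and at 0.0148 against 0.0987 at 1 h. In both F1 sets at the high dose, and in every low-dose array, it lay above mock on that scale. The difference was 1.17 ± 0.38 at the high dose (adjusted p 0.227) and 1.47 ± 0.38 at the low dose (unadjusted p 0.00163, adjusted p 0.697), and without the F1 30 min set the high-dose value was 0.84. With 4 times the pseudocount it was 0.57, and without background subtraction 0.38. BY4742 gave -0.15. NOC4, which works with NOP14 in small-subunit maturation, was higher at the high dose in 4 of 4 sets (0.72 ± 0.34, adjusted p 0.380), at 0.10 without background subtraction. Its signal over the array's median was below mock in F1 at 1 h (0.332 against 0.633) and above it in the other sets. NOP14 itself was higher in 1 set (-0.37 ± 0.45). RRP5, which acts in the processing of both subunits' rRNA, differed from mock by -0.36 to 0.06 in 3 sets and by 0.86 in YPD at 1 h. NSR1, the yeast nucleolin, differed by -0.79 to -0.16 in 3 sets and by 1.80 in YPD at 1 h.

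The 11 DEAD-box helicases, ATP-driven enzymes that unwind RNA duplexes, had a median of 0.22 with 9 positive and 2 negative differences, and none passed. HAS1, which releases snoRNAs from the precursor, was higher in 4 of 4 sets, at 0.14, 0.22 and 0.36 in 3 of them and at 1.94 in YPD at 1 h, and its fitted 0.66 was 0.19 without background subtraction. Before quantile normalization, its signal over the array's median was below mock in F1 at 1 h (0.418 against 0.815) and above it in the other sets. DBP2 was lower in 4 of 4 sets (-0.72 ± 0.37, adjusted p 0.426), by values from -0.02 to -1.58, and at -0.21 without background subtraction. ROK1, a small-subunit helicase, ranged from 2.92 in F1 at 30 min to -0.66 in YPD at 1 h, and its fitted 0.84 was 0.15 without the F1 30 min set. SPB4, a large-subunit helicase, had the widest range of all 49 genes between sets, from -3.01 to 2.08. For HAS1 and ROK1 the highest set stood more than 1 log2 unit above the other 3.

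The 3 methyltransferases outside snoRNPs had positive fitted differences. Of these, SPB1 and RRP8 were at or below background on 9 and 8 of the 14 arrays. NOP1 and CBF5, rRNA-modifying enzymes grouped with the snoRNP proteins, were at -0.93 and 0.15. NOP2, a cytosine methyltransferase of the large-subunit rRNA, was above background throughout. It was at 0.81 in F1 at 30 min, -0.58 in YPD at 30 min, 1.59 in F1 at 1 h and 1.96 in YPD at 1 h, a fitted 0.94 ± 0.42 (adjusted p 0.353) that was 0.02 without background subtraction. Of the 3 GTPases that act in large-subunit maturation, NOG1 was higher in 4 of 4 sets after normalization, by 0.70, 1.12, 1.40 and 0.87 (1.02 ± 0.34, adjusted p 0.234). Its YPD 30 min mock and F1 1 h high-dose arrays were at or below background. The 1.40, in F1 at 1 h, thus sets a mock array above background against a high-dose array at or below it. There its signal over the array's median went from 0.0821 to -0.102. Without background subtraction its fitted value was 0.13. NUG1 was at 0.85 ± 0.46 and turned to -0.13 without background subtraction. NOG2 was at -0.12.

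The 19 large-subunit assembly factors had a median of 0.04, with 11 positive and 8 negative differences. NOP7, ERB1 and YTM1 form one complex needed for early large-subunit processing, and their values differ. ERB1 was higher in 4 of 4 sets, by 0.84, 1.53, 0.24 and 0.45 (0.77 ± 0.29, adjusted p 0.285), and was at 0.05 without background subtraction. YTM1 was also higher in all 4, by 0.21 to 0.74 (0.07 without background subtraction), and NOP7 was higher in 2 and lower in 2. NOP12, an RNA-binding protein of large-subunit rRNA processing, was higher in 4 of 4 sets (1.16 ± 0.42, adjusted p 0.259), by 0.14 and 0.09 at 30 min and by 1.75 and 2.66 at 1 h, and its value without background subtraction was 0.50. RRS1, which with RPF2 brings a small ribonucleoprotein into the large subunit, was at -1.06 ± 0.42 (adjusted p 0.299) and lower in 3 of 4 sets, with both F1 1 h arrays and the F1 30 min high-dose array at or below background, and it was at -0.05 without background subtraction. SSF1 and NOP16 were at -0.79 ± 0.38 and -0.77 ± 0.39, each lower in 3 of 4 sets, and at -0.26 and -0.13 without background subtraction. Over all 49 genes, 7 were higher in every set after quantile normalization (RRP12, NOC4, HAS1, NOG1, NOP12, ERB1 and YTM1). A further 3 were lower (NOP1, NOP56 and DBP2). Among all ORFs 8.25% were higher and 9.06% lower in every set, beside 14.3% and 6.12% of the 49. Before normalization, as signal over the array's median, only NOP12 of the 7 was higher in every set. YTM1 (0.157 against 0.604), NOC4, HAS1, ERB1 and NOG1 were below mock in F1 at 1 h, and RRP12 in both YPD sets. NOP1, NOP56 and DBP2 were lower in every set on both scales. The share of all ORFs on the second scale was not counted.

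**Figure D4:**
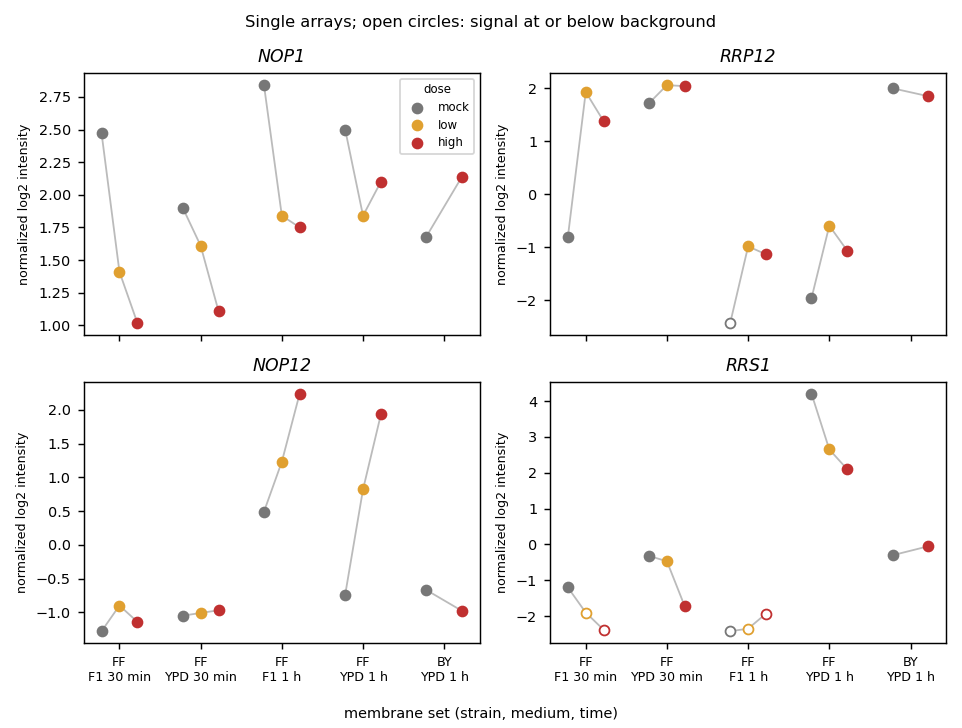
Quantile-normalized log2 intensity (vertical axes) of NOP1, RRP12, NOP12 and RRS1 on each array by membrane set (horizontal axis), with lines joining the doses of a set and open circles where the signal was at or below background. NOP1 lies below its mock in all treated FF18984 arrays, NOP12 separates from mock at 1 h, and RRS1 is high in YPD at 1 h.

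At the low dose fewer ORFs of any kind reached the unadjusted threshold than at the high dose. None of the 49 genes passed against mock, with 0.0% of all ORFs called in either direction, and the median was 0.03. At an unadjusted p under 0.05 RRP12 and MAK5, a large-subunit helicase, were higher (2.9% of all ORFs), and NOP1 and NOC3, a factor of large-subunit transport, were lower (3.53%). MAK5 was above mock in 4 of 4 sets at the low dose, by 0.28, 0.99, 0.80 and 1.03 (0.77 ± 0.29, adjusted p 0.724), and in 3 of 4 at the high dose. In every set 4 genes were higher at the low dose (RRP12, DBP10, MAK5 and NOP12; 8.3% of all ORFs) and 4 lower (NOP1, GAR1, NOG2 and MAK21; 8.17%). NOC3 was at -1.02 ± 0.37, with all 3 YPD 30 min arrays at or below background. The direct comparison of high with low dose called none of the 49 as higher, against 0.0328% of all ORFs, and none as lower, against 0.0%. Its median was 0.07, and at an unadjusted p under 0.05 it held 1 gene, NOC4 (0.76 ± 0.34, higher in 4 of 4 sets), against 2.97% of all ORFs, and none lower, against 2.38%. For RRP12 high minus low dose was negative in all 4 sets, at -0.56, -0.02, -0.15 and -0.47. NOP12 was higher at the high than at the low dose in both 1 h sets, by 1.01 and 1.10.

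The high-dose difference at 1 h was tested against that at 30 min. None of the 49 genes passed, beside 0.082% of all ORFs higher and 0.148% lower, and the median of the fitted change was -0.07. SPB4 (YFL002C) had the smallest p. Its 30 min levels were 2.37 in the F1 mock and -0.63 in the F1 high-dose array, and 3.33 and 1.14 in YPD. At 1 h they were 0.78 and 0.19 in F1, and -2.38 and -0.30 in YPD, where the mean spot signals of both arrays were at or below background. Both 30 min high-dose arrays were thus well below their mock and low-dose arrays (2.92 and 3.50), while the 1 h sets did not share a direction. The change with time was 3.35 ± 0.79 (adjusted p 0.0940), made of -2.60 at 30 min and 0.74 at 1 h, and it was 0.31 without background subtraction. With the 30 min sets alone, SPB4 passed as lower, against mock (-2.60, adjusted p 0.0367) and against the low dose (-2.96, adjusted p 0.0367). Among all ORFs these fits called 25 higher and 7 lower in the first comparison, and 14 higher and 1 lower in the second. Over all alternatives the adjusted p of SPB4 ran from 0.0367 to 0.874 in the first comparison and from 0.0367 to 0.996 in the second. With the 1 h sets alone, NOP12 (YOL041C) passed as higher (2.21, adjusted p 0.0447, and up to 0.951 under the other alternatives), the only one of the 49, beside 6 of all ORFs higher and 6 lower. Its 1 h levels at mock, low and high dose were 0.49, 1.23 and 2.24 in F1 and -0.74, 0.82 and 1.93 in YPD, in dose order in both media and all above background. At 30 min its 6 arrays lay between -1.28 and -0.90. The change with time of NOP12 was 2.09 ± 0.64 (adjusted p 0.138). At an unadjusted p under 0.05 DBP10 (2.01 ± 0.77) and NOP2 (1.66 ± 0.71) were also more positive at 1 h (4 of 49 in all, against 9.06%). DBP3 (-1.81 ± 0.70), RRP7 (-1.68 ± 0.67) and SSF1 (-1.57 ± 0.63) were more negative (3 of 49, against 8.06%). These shares are near the background. Without background subtraction the values were 0.77 for NOP12, 0.17 for DBP10, 0.29 for NOP2 and -0.20 for RRP7, and those of DBP3 and SSF1 turned to 0.56 and 0.32. The same test between media called none of the 49, with 0.0% of all ORFs called. ROK1 alone had an unadjusted p under 0.05 (-2.06 ± 0.90, adjusted p 0.953; 2.05% of all ORFs lower in YPD), at -0.34 without background subtraction, and none was more positive, against 2.1%.

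Levels at 1 h and at 30 min were not tested against each other. Each membrane held one time and one medium, so neither can be told apart from the membrane, and the values that follow are a description. In 9 of the 49 genes, or 18.4%, all 6 FF18984 arrays at 1 h exceeded all 6 at 30 min, beside 14.8% of all ORFs. They were NOP56, NOP58, GAR1, NHP2, DRS1, MAK5, NOP12, NOP53 and RPF1, and 4 of these are among the 7 snoRNP proteins. The reverse held for NOP14 and SSF1, 4.08% of the genes beside 13.6% of all ORFs. GAR1 lay between -0.38 and 0.58 at 30 min and between 2.12 and 2.48 at 1 h. RPF1, a Brix-domain protein of the large subunit, lay between -1.22 and 0.24 and then between 2.05 and 2.57. SSF1, of the same protein family, ran the other way, from 1.52 to 3.12 at 30 min and from -1.93 to 0.73 at 1 h. The BY4742 arrays, labelled 1 h, had RPF1 at -0.66 and -1.32 and NOP56 at -0.21 and -0.63, against 1.82 to 2.72 for NOP56 in FF18984 at 1 h.

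Between rich and minimal medium 1 of the 49 genes passed. The p-values for medium come from 12 arrays on 4 membranes, 2 per medium, and medium and membrane cannot be told apart. The estimated correlation within a membrane was 0.0744, so arrays that share a membrane counted as almost independent. These p-values can be too small where a gene's medium difference changes between membranes, as that of RRS1 does below. RRS1 (YOR294W) was higher in YPD by 3.10 ± 0.65 on the log2 scale (adjusted p 0.0108), beside 3.30% of all ORFs called as higher, and none of the 49 was lower in YPD, beside 1.95%. Its 1 h levels in YPD were 4.21 (mock), 2.65 (low dose) and 2.10 (high dose), while all 3 F1 arrays at 1 h were at or below background. On the main scale, against the lowest measurable signal of those arrays, RRS1 was 31.5-fold higher or more in YPD at 1 h. That limit depends on the background subtraction and the pseudocount and is not a guaranteed minimum. With 4 times the pseudocount the fitted difference over both times was 1.95. At 30 min its YPD levels were -0.32, -0.47 and -1.73, and of the F1 arrays only the mock, at -1.20, was above background. The YPD arrays thus exceeded the F1 arrays in 6 of 6 matched pairs, by 0.65 to 1.43 at 30 min and by 4.02 to 6.63 at 1 h, where the F1 values are floor values. Without either 1 h set the difference was 0.99 and no longer passed (adjusted p 0.175 without F1 and 0.149 without YPD), and without background subtraction it was 1.26 (adjusted p 0.0885), where NOG1 passed in its place (0.53, adjusted p 0.0330). Over all alternatives its adjusted p ran from 0.000179 to 0.175. In BY4742, grown in YPD for 1 h, RRS1 stood at -0.30 and -0.05.

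The group leaned slightly towards higher values in YPD, a lean that was not tested and was absent between the 1 h mock arrays. The median of the 49 was 0.11, beside -0.02 for all ORFs, with 30 genes higher and 19 lower in YPD, where 48.8% of all ORFs were higher. Over the 6 matched pairs the median ran from -0.03 (1 h mock, beside 0.08 for all ORFs) to 0.22 (30 min mock, beside -0.02). At an unadjusted p under 0.05, 6 genes were higher (12.2%, near the 10.9% of all ORFs) and 1 lower (2.04%, beside 9.48%). After RRS1 the higher genes were RRP1, a large-subunit processing factor (1.04 ± 0.35, adjusted p 0.0930, and 0.05 without background subtraction), NOP56 (0.75 ± 0.27), RRP3, a small-subunit helicase (0.81 ± 0.33, and 0.18 without background subtraction), SSF1 (0.84 ± 0.35) and DBP2 (0.83 ± 0.39). EBP2, a large-subunit factor, was lower (-0.85 ± 0.30, adjusted p 0.109), in 5 of 6 pairs. In all 6 matched pairs 7 genes, or 14.3%, were higher in YPD (NOP56, NOP58, RRP12, RRP3, RRP1, RRS1 and SSF1), beside 8.3% of all ORFs. NOG2 alone, or 2.04%, was lower in all of them, beside 7.76%. No gene had all 6 YPD arrays above all 6 F1 arrays, beside 1.64% of all ORFs, and none the reverse, beside 0.82%. The count past the adjusted test depends on the sets used, and with 1 set left out each medium is compared on 1 membrane. Without the F1 30 min set 4 genes passed (RRS1, NOG1, MAK16 and DBP2, all higher), beside 175 of all ORFs as higher and 207 as lower. Without the YPD 30 min set 2 did (RRS1 and NOG1, both higher), beside 63 and 73. Without the YPD 1 h set 3 passed, NHP2 as higher (1.47) and EBP2 (-1.15) and ERB1 (-1.27) as lower, beside 450 and 320. Without the F1 1 h set none did, beside 341 and 211.

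**Figure D5:**
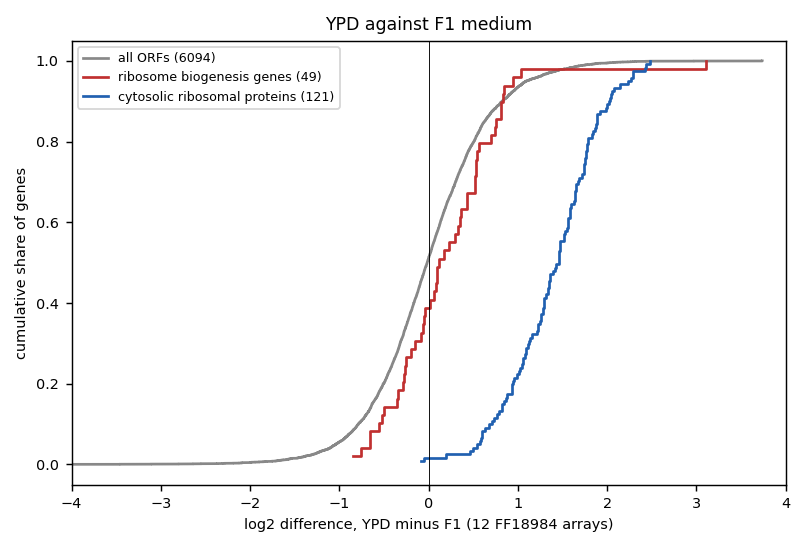
Cumulative share of genes (vertical axis) against the fitted log2 difference between YPD and F1 (horizontal axis) for all 6094 ORFs (grey), the 49 ribosome biogenesis genes (red) and 121 cytosolic ribosomal protein genes (blue). The red curve runs just right of the grey one, with medians of 0.11 and -0.02, and the blue curve has its median at 1.46.

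The genes that encode the ribosome's own proteins gave other values on the same arrays. Of 121 cytosolic ribosomal protein genes measured, 84 passed as higher in YPD and none as lower, with a median of 1.46. Near-identical gene copies in this family share probe sequence, so these 121 are not independent measurements, and the count fell to 25 without the YPD 30 min set. Other assembly factors, which are not among the 49, were measured on the same arrays. For YPD against F1, 4 of 44 other small-subunit factors passed as higher (median 0.12), as did 1 of 28 other large-subunit factors (median 0.31). None of 14 exosome genes (0.37) or of 8 RNA polymerase I genes (0.31) passed, and none of these 4 lists held a gene that passed as lower. For high dose against mock none of any of these lists passed. The medians were 0.04 for the other small-subunit factors, 0.05 for the other large-subunit factors, 0.12 for the exosome, 0.02 for RNA polymerase I and -0.34 for the ribosomal proteins, of which 95 of 121 were lower. No test compared these lists with the ribosome biogenesis genes.

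In BY4742, with 1 array per condition and so no replicate check, 3 of the 49 genes were past 2-fold higher at the high dose (5.15% of all ORFs) and 1 past 2-fold lower (3.87%). The median was 0.11, with 26 genes higher and 23 lower. SPB4 had the largest difference, from 1.01 in mock to 3.07 at the high dose (2.06). The FF18984 value in YPD at 1 h, 2.08, rests on arrays where its mean spot signal was at or below background. The other genes past 2-fold were YTM1 (1.13) and MAK21, a large-subunit precursor factor also called NOC1 (1.03), both higher, and NSR1 (-1.04). Without background subtraction none of them stayed past 2-fold: SPB4 was at -0.06, YTM1 at 0.15, MAK21 at 0.30 and NSR1 at -0.13. In FF18984 in YPD at 1 h, NSR1 was at 1.80. Below 2-fold came ROK1 (-0.99), NOP53 (-0.81), NOP14 (0.77), HAS1 (-0.75), RPF1 (-0.67) and NHP2 (0.56). Without background subtraction NOP14 turned to -0.29 and the others were smaller. In level, CBF5, NOP16 and MAK16 were lower in both BY4742 arrays than in all 12 FF18984 arrays, 6.12% of the genes beside 4.45% of all ORFs, and none was higher in both, beside 3.61%. CBF5, above background on all 14 arrays, was at -0.46 and -0.63 in BY4742 and between 0.86 and 1.88 in FF18984. NOP16 and MAK16 were at or below background in the BY4742 mock array, NOP16 also in 1 and MAK16 in 2 of the FF18984 arrays, so their order rests in part on floor values. For MAK16 the nearest values were -2.17 in BY4742 and -2.11 in FF18984.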

How the data were processed

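The authors deposited, per the file headers, spot files with an intensity for each of 2 spots at 6912 positions, as an integral, a local background and their difference. A second deposited table holds intensity values for the series; how it was made is not given in the sources used here, nor are the imaging software or a genome build. The spot files had not been scaled between arrays.

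The background-subtracted intensity of both spots was divided by the array's median positive value, and each negative spot was set to 0. The pseudocount, 0.187, is the 10th percentile of positive values. Then log2 values were averaged per ORF and quantile normalized over the 14 arrays. No ORF was filtered out. Symbols came from the RefSeq gene table (assembly R64) for 5567 of 6094 ORFs. Dose was tested with limma 3.58.1 (R 4.3.3; lmFit, eBayes with trend) on the 12 arrays of FF18984, blocking on membrane set, and medium with that block as random (duplicateCorrelation from statmod 1.5.0). Benjamini-Hochberg adjustment ran over all 6094 ORFs. The set, not a replicate number, pairs the arrays, since the labels state that its samples shared a membrane. The fit was also run on simulated data with independent normal noise, without floor values or correlation within a membrane. That run does not check those features, and its outcome is not given here. Python 3.11.15 read the files. The number of arrays limits the precision.

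Genes were named by rule: the 5 per direction with the smallest p in each contrast, 2 per role group, the 5 largest BY4742 differences per direction among genes above background, the 3 widest ranges between sets per direction, and 12 fixed genes. MAK16, DRS1, RPF1 and NOC3 levels, and genes listed for non-overlap or for a direction in every set, were added after their values were seen. The members, lists and tests were chosen with earlier results of these data known. Promoter motifs were not analysed here.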

Additional observations from a re-analysis of the deposited data

Results flagged for a closer look

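In quantile-normalized values, 7 genes were higher and 3 lower at the high dose in all 4 FF18984 sets. In 6 of these the BY4742 pair went the opposite way. ERB1, YTM1, NOP56 and DBP2 kept their direction in BY4742. The share of all ORFs that went the opposite way was not counted, so the number is not read as a result about these genes. The difference between strains was not tested, since BY4742 has 1 array per dose, and the BY4742 arrays resembled the FF18984 30 min arrays more than the 1 h arrays. NOP1 was at 0.46 in BY4742 and between -0.39 and -1.45 in FF18984. HAS1 was at -0.75 in BY4742 and between 0.14 and 1.94 in FF18984. NOP12 was at -0.31 in BY4742 and between 0.09 and 2.66 in FF18984. These 3 genes were above background on all 14 arrays. NOG1 was at -0.51 in BY4742 and between 0.70 and 1.40 in FF18984, where its YPD 30 min mock and F1 1 h high-dose arrays were at or below background. NOC4 was at -0.25 in BY4742, with the mock array at or below background, and between 0.26 and 1.08 in FF18984. RRP12 was at -0.15 in BY4742 and between 0.32 and 2.18 in FF18984, where its F1 1 h mock array was at or below background.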

How the results depend on the processing

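Of 166 repeats of the counts and medians, 149 stayed within the limits set for them and 17 moved; of 837 repeats for single genes, 813 kept direction and side of the threshold. The number of the 49 genes called for high dose against mock was 1 with the 30 min sets alone (SPB4) and 1 with the 1 h sets alone (NOP12), and for high against low dose 1 with the 30 min sets alone; over all ORFs the first comparison called 5, and 0 to 32 under the alternatives. Median centring gave 4 calls for the change with time (SPB4, NOP12, NOP58 and MAK5), all more positive at 1 h. Among all ORFs that fit called 397 as more positive and 50 as more negative, and no test compared the shares. The median of the 49 was then 0.60 and that of all ORFs 0.41. Under cyclic loess the median of the 49 was 0.11. For medium, median centring gave a median of 0.23. Without background subtraction the high-dose median was -0.05. The median of high minus low dose was 0.22 with the 1 h sets alone. Leaving out 1 membrane set at a time gave 0 to 4 calls for medium (0 without F1 1 h, 4 higher without F1 30 min, 2 higher without YPD 30 min, 1 higher and 2 lower without YPD 1 h). Among all ORFs, 136 to 770 were called for medium under the alternatives. These fits had no set correlation and 1 membrane per medium, so that the value is the difference at the time that keeps both media. The median dose-by-medium difference was then -0.12 (without YPD 30 min) to 0.08. In the BY4742 pair 0 genes passed 2-fold without background subtraction, 1 with 4 times the pseudocount and 1 in the series table. Without the membrane set block (no pairing of arrays) 0 of the 49 were called in every dose comparison and 1 for medium, with 291 ORFs higher and 204 lower overall. Signs reversed without background subtraction for BRX1 (dose by medium, -0.45), DBP3 and SSF1 (dose by time, 0.56 and 0.32), NOC3 and SPB1 (medium, 0.13 and 0.07), NUG1 (high dose, -0.13), NOP14 (low dose, 0.01), and RRP8 and RRS1 (high minus low, -0.05 and 0.06). They reversed with the 30 min sets alone for NOP14, NOP2 and RPF2 (low dose, 0.05, -0.09 and 0.00), with the 1 h sets alone for SPB4 (high minus low, 0.32), under median centring for NOP56 (high dose, 0.09) and without F1 1 h for SPB1 (high minus low, 0.05, with the lowest value -0.69 without YPD 30 min). The cause was not tested. The sets of a single time gave a median but no test for medium and dose by medium.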
